A study of Mus musculus with 4 samples.

Results

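Cxcl16 and Cxcr6 are a chemokine and its receptor, 2 of the 31053 features of each deposited table, and both were taken by symbol from all 4 libraries. Cxcl16 was found in macrophages and dendritic cells, and Cxcr6 in T cells and in some of the few CD3-negative cells with Thy1 and Il7r. Against PBS, Cxcl16 was 1.54-fold higher in macrophage/monocyte cells 3 days after cisplatin. Cxcr6 was 5.88-fold higher over all cells of that library, which held more T cells, while its level within T cells was 0.900-fold (0.747 to 1.09) that of PBS. At 7 days the level of Cxcr6 within T cells was 0.324-fold that of PBS.

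The cells came from tumours of TC-1, a mouse lung epithelial tumour line, grown under the skin of wild-type C57/bl6 mice from 300000 injected cells. PBS, or 1 intraperitoneal dose of cisplatin at 6 mg/kg, was given at a tumour area of 40 mm². The 4 libraries are PBS, with no day in the labels and also named untreated in another field, and cisplatin at day 1, day 3 and day 7. Cells were sorted as innate lymphoid cells by CD45, CD90 and CD127 without lineage markers, and the number of mice behind a library is not in the labels. Cisplatin is a platinum drug that damages DNA. Each group is 1 library, so there is no replicate check and no test. All intervals are 95% and cover counting error only, and treatment, day, tumour age, sort and library cannot be told apart.

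CXCL16 is made as a membrane protein with its chemokine domain on a stalk, where it can hold cells that carry CXCR6 and take up oxidised lipoprotein. The metalloproteases ADAM10 and ADAM17 cut the stalk and free the soluble chemokine, which draws CXCR6-bearing cells. CXCR6 is a receptor that signals through inhibitory G proteins, and it marks T cells, natural killer (NK) cells and other innate lymphoid cells that lodge in tissue, in tumours among other places.

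The tables of PBS and of cisplatin days 1, 3 and 7 hold 59915831, 82493626, 36587207 and 16153484 transcript counts (unique molecular identifiers, UMIs). Of their barcodes, 7425, 6841, 4715 and 2705 were kept, with median depths of 6162, 8769, 6045 and 5039 UMIs. Any pair of libraries shared 4 to 32 barcodes, at most 0.511% of the smaller one. Cells were placed in gates by marker UMIs. The macrophage/monocyte gate needed 3 of 8 markers such as Csf1r and Cd68, the T gate 2 UMIs of Cd3d, Cd3e and Cd3g, and the NK/ILC1 gate 2 UMIs of Ncr1, Klrb1c and Klre1. The migratory dendritic cell (DC) gate needed Ccr7 and Fscn1. A barcode with both lymphocyte and myeloid markers was called mixed. The macrophage/monocyte gate held 6812, 5338, 3344 and 2157 cells after PBS and on days 1, 3 and 7, and the T gate 128, 244, 380 and 95. Mixed barcodes numbered 141, 741, 518 and 124, and NK/ILC1 cells 32, 25, 43 and 57. Csf1r, itself a marker of the gate and so no independent check, was found in 78.9% to 96.2% of macrophage/monocyte cells. Trac, a T cell receptor chain that no gate used, was found in 60.2% to 71.6% of T-gate cells. The labelled cell type was rare. Cells with Thy1 (CD90) and Il7r (CD127), and with no marker of another gate, numbered 5, 15, 4 and 0.

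Cxcl16 (ENSMUSG00000018920) spans chr11:70453983-70459984 on the minus strand of mm10. Of its exonic bases, 552 (18.3%) are also exonic in Zmynd15 on the opposite strand. Cxcr6 (ENSMUSG00000048521) spans chr9:123806475-123811760 on the plus strand, inside Fyco1, which runs the other way and shares 0 exonic bases with it. The shared bases lie where transcription of both genes begins, and the libraries are 3' libraries. The strand setting of the counting is not given in the sources used here. How many counted reads fall on the shared bases was not tested. Zmynd15 stood at 113, 132, 163 and 132 CPM (UMIs scaled to a gate total of 1000000) in macrophage/monocyte cells after PBS and on days 1, 3 and 7. In T-gate cells Fyco1 stood at 23.7, 9.49, 18.4 and 8.62 CPM.

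The stretch before the RefSeq start of Cxcr6, which lies 2 bases after the GENCODE start given above, is shown because Runx3, Tbx21 and Rora, T cell transcription factors among the genes examined, belong to families that bind motifs searched in it. It is the RefSeq sequence of chr9:123806227-123806476 (GRCm38.p6, plus strand). The capitals mark TGTGGT, the core motif of Runx factors, read on the opposite strand and beginning 10 bases before the RefSeq start.
Cxcr6: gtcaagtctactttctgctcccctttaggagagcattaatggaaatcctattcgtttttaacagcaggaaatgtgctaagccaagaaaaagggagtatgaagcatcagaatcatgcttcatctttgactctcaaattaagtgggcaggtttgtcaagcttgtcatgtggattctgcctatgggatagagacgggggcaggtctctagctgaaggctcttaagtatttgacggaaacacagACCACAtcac
TGTGGT was found on either strand of 14.0% of 32851 promoter windows of the same 250 bases. AGGTGTGA of T-box factors, AGGTCA of ROR factors and AGATAA of GATA factors were not in this window, and were in 1.12%, 14.0% and 9.99% of all windows. A match describes letters only.

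Cxcl16 was a myeloid transcript in every library. It stood at 562 (556 to 569), 594 (588 to 601), 866 (855 to 878) and 715 (701 to 730) CPM in macrophage/monocyte cells after PBS and on days 1, 3 and 7. These cells held 97.2%, 87.1%, 85.8% and 91.2% of all Cxcl16 UMIs of their libraries. Day 3 was highest, day 7 lay between it and the other libraries, and the 4 intervals do not overlap. With each cell thinned to 2000 UMIs, Cxcl16 was detected in 67.0%, 67.6%, 79.2% and 74.2% of macrophage/monocyte cells, with 253, 196, 239 and 214 shallower cells left out. Unthinned, at median depths of 6354, 9259.5, 6633 and 5395 UMIs, the shares were 92.6%, 94.8%, 93.6% and 91.0%.

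Migratory DC, which carry antigen to lymph nodes and express Ccr7, held Cxcl16 at a like level. It stood at 596 (453 to 770), 462 (418 to 510) and 692 (627 to 762) CPM in the 24, 95 and 83 cells of the PBS, day 1 and day 3 libraries. The 3 such cells of day 7 held 5 Cxcl16 UMIs. Over macrophage/monocyte cells of the same library, the DC level was 1.06-fold (0.804 to 1.37) in PBS, 0.778-fold (0.703 to 0.859) at day 1 and 0.799-fold (0.723 to 0.880) at day 3. So the DC were below the macrophages at day 1 and day 3, and not separable from them in PBS.

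Lymphocyte and mast cell gates held little Cxcl16. T-gate cells stood at 78.0, 106, 101 and 77.5 CPM after PBS and on days 1, 3 and 7, and 15.7%, 19.3%, 15.7% and 16.3% of thinned T-gate cells had a UMI (14.1%, 30.7%, 27.4% and 16.8% unthinned, at median depths of 2064.5, 3340.5, 3085 and 2041 UMIs). Thinning left out 58, 57, 56 and 46 T-gate cells. Droplets also catch free RNA, so Cxcl16 was set against 5 abundant macrophage transcripts, Lyz2, Apoe, C1qa, C1qb and C1qc. Per 1000 of their UMIs, T-gate cells held 14.5, 15.7, 36.7 and 16.5 Cxcl16 UMIs, and macrophage/monocyte cells 16.4, 14.5, 30.0 and 16.1. The intervals of both gates overlap except at day 3, with 30.8 to 43.3 in the T gate and 29.6 to 30.4 in macrophage/monocyte cells. The part of free RNA in the Cxcl16 of the T gate was not tested. Migratory DC differed, with 63.5, 51.5 and 195 Cxcl16 UMIs per 1000 in the PBS, day 1 and day 3 libraries. Mast cells stood at 79.6 CPM (5 UMIs) in PBS, 16.0 CPM (3 UMIs) at day 1 and 22.9 CPM (1 UMI) at day 3.

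**Figure D1:**
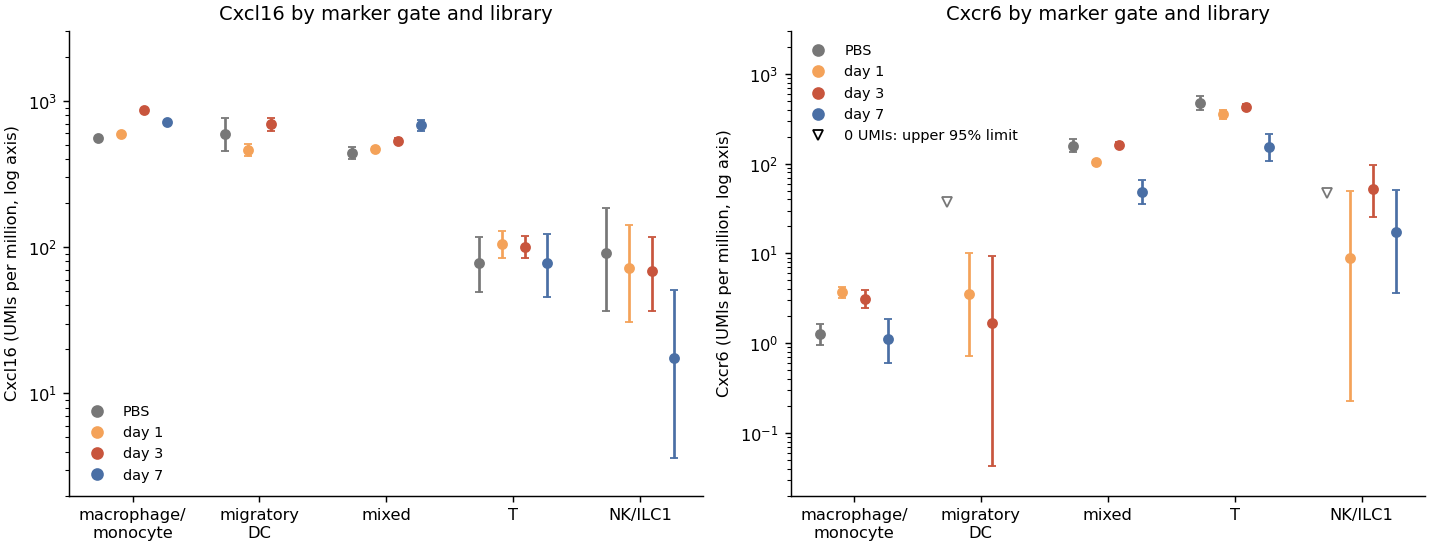
Levels of Cxcl16 (left) and Cxcr6 (right) in CPM, on log axes, for 5 marker gates after PBS and on days 1, 3 and 7. Points are sums over the cells of 1 library, bars are exact Poisson 95% intervals, open triangles are the upper limit where no UMI was counted, and gates with under 9 cells are left out; Cxcl16 is high in the myeloid gates, and Cxcr6 is highest in the T gate in every library, with its lowest T-gate value, 155, at day 7.

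Against PBS, a gene was called higher or lower where it passed 1.5-fold and its interval left out equality, among features with 20 or more UMIs over both libraries. Cxcl16 in macrophage/monocyte cells had a log2 ratio of 0.08 (0.06 to 0.10) at day 1, 0.62 (0.60 to 0.65) at day 3 and 0.35 (0.31 to 0.38) at day 7. It was called higher at day 3 alone, in a comparison where 15.0% of features were called higher and 15.6% lower, and 15.6% of features had a larger ratio. At day 1, 14.7% of features were called higher and 4.13% lower, and at day 7, 15.4% and 13.7%. The day 1 value lies below the median over all features, 0.12, and its sign depends on the scaling: TMM factors shift every ratio of that comparison by -0.12 and put Cxcl16 at -0.04. All 3 comparisons share the PBS library, so a peculiarity of it enters each.

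At day 3 the interval of the ratio to PBS lay above 0 in 4 of 7 macrophage sub-gates, which may overlap, and the ratio passed 1.5-fold in cells with Arg1 and in cells with none of the markers. In cells with Arg1, an enzyme that breaks down arginine, Cxcl16 stood at 466, 545, 789 and 617 CPM after PBS and on days 1, 3 and 7. Cells with Cx3cr1 and Fcrls, genes of resident-type macrophages, stood at 604, 629, 861 and 761 CPM, and cells with none of the sub-gate markers at 549, 603, 886 and 698 CPM. Each of these is highest at day 3, by 0.76, 0.51 and 0.69 on the log2 scale over PBS. Cells with Ly6c2 and Plac8, genes of monocytes newly arrived from blood, stood at 667, 714, 954 and 724 CPM. They numbered 20, 57, 708 and 25, and their day 3 ratio to PBS was 0.52 (0.15 to 0.91). In 3 sub-gates the interval of the day 3 ratio includes 0. Cells with Cd163 and Folr2, genes of perivascular-type macrophages, were at 0.06 (-0.54 to 0.61), with 9 cells at day 3 and 104 in PBS. Dividing cells with Mki67 and Top2a were at 0.08 (-0.03 to 0.18). Cells with Nos2 were at -0.22 (-0.76 to 0.39), with 64 cells at day 3 and 4 in PBS.

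Cells with Nos2, the inducible nitric oxide synthase of activated macrophages, had the highest Cxcl16 of the sub-gates at day 1 and day 3. They stood at 1046 (953 to 1146) CPM in 43 cells at day 1 and 1163 (1070 to 1262) CPM in 64 cells at day 3. That is 1.66-fold (1.51 to 1.82) and 1.35-fold (1.23 to 1.48) the level of cells with Cx3cr1 and Fcrls in the same library. The PBS and day 7 libraries had 4 and 2 such cells, too few to rank. Dividing cells were lowest or near lowest, at 449, 325, 473 and 431 CPM, which is 0.743-, 0.517-, 0.550- and 0.566-fold the level of cells with Cx3cr1 and Fcrls.

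**Figure D2:**
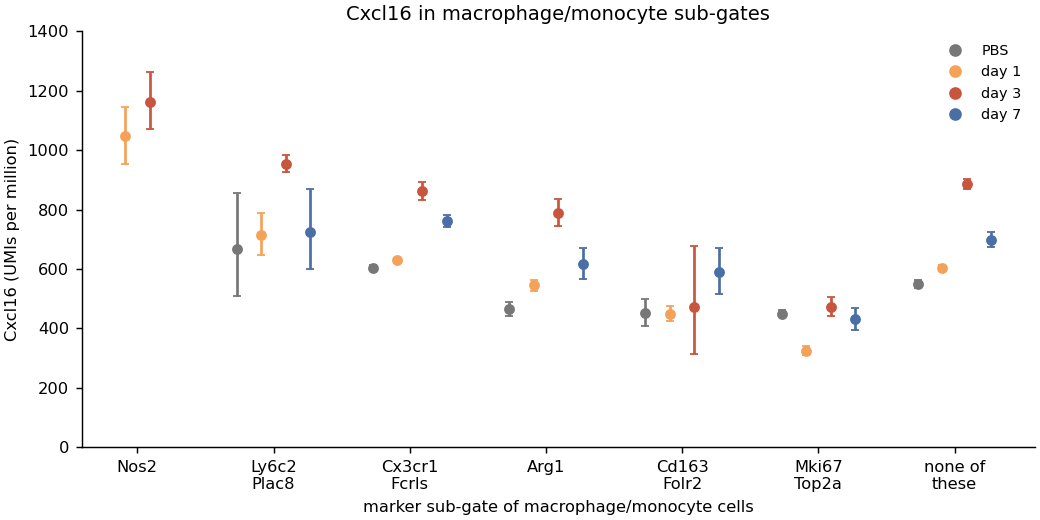
Cxcl16 in CPM in sub-gates of macrophage/monocyte cells, by library, with exact Poisson 95% intervals; sub-gates may overlap, and those with under 9 cells are left out. Nos2-bearing cells lie above 1000 at day 1 and day 3, and cells with Mki67 and Top2a lie below 500 in all 4 libraries.

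Genes that act on the ligand were read in the same cells from lists chosen with earlier results known. Of 6 genes known to induce Cxcl16 or to report interferon-gamma and TNF signalling, 3 were called higher at day 1, 5 at day 3 and 0 at day 7, and 1 lower at day 7. Over all features, 14.7%, 15.0% and 15.4% were called higher on days 1, 3 and 7, and 13.7% lower at day 7. Their median log2 ratio at day 3 was 1.67, against -0.07 over all features. Irf1 stood at 127 CPM at day 3 and 30.2 CPM in PBS, and Tnf at 287 and 85.4 CPM. Both are past 1.5-fold, and Irf1 is a transcription factor downstream of interferons. The 6 genes include Ifng, a gene of lymphocytes. In these same macrophage/monocyte cells, 10 of 13 residency and effector genes, read in T cells further below, were called higher at day 1 and at day 3. Cxcr6 was called higher there too, with log2 ratios of 1.54 and 1.30. The part of lymphocyte RNA in these counts was not tested. Of the genes that process the protein, Adam10 was called lower at day 3, at 36.7 CPM against 60.1 CPM in PBS, and Adam17 lower at day 7, at 61.5 CPM against 106 CPM in PBS. Timp3, an inhibitor of these proteases, was called higher on all 3 days but was scarce, at 0.269 CPM in PBS and 4.34, 1.76 and 3.69 CPM on days 1, 3 and 7. Among the other scavenger receptors for oxidised lipoprotein, Olr1 was called higher at day 1 and day 3 and lower at day 7, Cd36 lower at day 7, and Msr1 was never called.

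Among the gates, Cxcr6 was highest in T cells in every library. It stood at 478 (402 to 564), 356 (317 to 398), 430 (396 to 466) and 155 (109 to 215) CPM in the T gate after PBS and on days 1, 3 and 7, from 141, 300, 584 and 36 UMIs. The day 7 interval lies below the other 3, and those of PBS and day 3 overlap. After thinning, 47.1% (35.1 to 59.5%), 35.3% (28.5 to 42.6%), 38.0% (32.7 to 43.5%) and 22.4% (11.8 to 36.6%) of T-gate cells had a Cxcr6 UMI, and 52.3%, 38.1%, 41.6% and 16.8% unthinned. Cells with 4 or more UMIs were a minority, and the most in 1 T-gate cell were 11, 17, 19 and 5. The macrophage/monocyte gate serves as background, with 0.335%, 0.778%, 0.580% and 0.154% of thinned cells (0.661%, 2.64%, 1.94% and 0.603% unthinned) and 1.26, 3.68, 3.104 and 1.10 CPM. There Cxcr6 came to 35.1, 26.3, 19.6 and 10.6 UMIs per 100 of the T cell receptor genes Trac and Trbc2, beside 33.0, 24.1, 23.7 and 6.04 in the T gate, with intervals that overlap in each library. Per 100 UMIs of Cd3d, Cd3e and Cd3g it came to 37.0, 28.8, 21.3 and 15.7 in macrophage/monocyte cells and 22.0, 17.0, 18.0 and 5.11 in the T gate, with intervals apart in PBS and on days 1 and 7; the macrophage/monocyte gate excludes barcodes with 2 or more of these UMIs.

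Many Cxcr6 UMIs lay outside the T gate. The T gate held 35.5%, 20.3%, 39.5% and 36.0% of them after PBS and on days 1, 3 and 7, and the mixed barcodes 40.3%, 62.2%, 53.4% and 45.0%. Mixed barcodes stood at 160, 104, 163 and 48.8 CPM, in the same order as the T gate apart from PBS and day 3, which overlap. They are deep, with a median of 6757 UMIs in PBS and 11001 at day 1, and 75.9% and 83.9% of them held Cxcl16. Their Cxcl16 stood at 440, 470, 534 and 680 CPM after PBS and on days 1, 3 and 7, and was called higher than PBS at day 7, with a log2 ratio of 0.63 (0.45 to 0.81), where 10.8% of features were called higher. Whether they are cell pairs or lymphocytes with free macrophage RNA was not tested.

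NK/ILC1 cells held little Cxcr6. None of the 32 cells of the PBS library had a UMI, at a median depth of 2311 UMIs, and a count of 0 allows up to 9.38% of cells with a UMI (3 of 32). There were 1 UMI in 25 cells at day 1, 10 UMIs in 4 of 43 cells at day 3 and 3 UMIs in 2 of 57 cells at day 7. In each library the T gate was higher. Against a floor of 3 counts over the NK/ILC1 gate, it was at least 12.3-fold higher in PBS. With those 3 counts taken as observed, the interval of that fold is 4.13 to 60.5. The T gate was 39.8-fold (7.09 to 1577) higher at day 1, 8.14-fold (4.39 to 17.1) at day 3 and 8.84-fold (2.79 to 44.9) at day 7. No ratio to PBS was formed for Cxcr6 in NK/ILC1 cells. In that gate 5.04%, 7.87% and 14.6% of features were called higher on days 1, 3 and 7, and 2.92%, 3.49% and 6.31% lower. The small gate of CD3-negative cells with Thy1 and Il7r held 5 UMIs in 2 of 5 cells in PBS, 6 UMIs in 4 of 15 cells at day 1 and 2 UMIs in 1 of 4 cells at day 3. That is 446 (145 to 1041) CPM in PBS, 198 CPM at day 1 and 173 CPM at day 3. In PBS the T gate stood at 478 (402 to 564) CPM, and these intervals overlap.

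Over all kept cells Cxcr6 rose at day 1 and day 3, and within the T gate as a whole it did not. Over all cells it stood at 7.82, 22.2, 46.0 and 6.49 CPM after PBS and on days 1, 3 and 7. The log2 ratio to PBS was 1.51 (1.34 to 1.67) at day 1, 2.56 (2.39 to 2.72) at day 3 and -0.27 (-0.60 to 0.05) at day 7. It was called higher at day 1 and day 3, where 17.1% and 18.9% of features were called higher and 3.84% and 15.3% lower. At day 7, 19.9% were called higher and 12.0% lower. The T gate itself made up 1.72%, 3.57%, 8.06% and 3.51% of kept cells, and the mixed barcodes 1.90%, 10.8%, 10.99% and 4.58%, shares that the sort can set. Within the T gate the log2 ratio was -0.43 (-0.72 to -0.13) at day 1 and -0.15 (-0.42 to 0.12) at day 3, neither of them past 1.5-fold. Scaled to the UMIs of Cd3d, Cd3e and Cd3g in place of the gate total, day 3 gave -0.29 (-0.56 to -0.02). At day 1, 5.65% of features were called higher in that gate and 3.04% lower, and at day 3, 6.96% and 4.56%.

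At day 7 the T gate had less Cxcr6, with a log2 ratio of -1.62 (-2.19 to -1.09). It was called lower, as were 9.16% of features in that comparison, with 12.9% called higher, and 97.3% of features had a larger ratio. Mixed barcodes gave -1.71 (-2.22 to -1.23), where 9.67% of features were called lower and 10.8% higher. At day 1 they gave -0.62 (-0.86 to -0.37), called lower beside 2.22% of features, with 6.15% called higher. At day 3 they gave 0.03 (-0.22 to 0.29), not called, beside 10.7% of features called higher and 7.83% lower. Scaled to the UMIs of Cd3d, Cd3e and Cd3g in place of the gate total, the T gate gave -2.11 at day 7. With mixed barcodes added as well, the libraries of PBS and days 1, 3 and 7 held 24.5, 19.3, 19.8 and 6.19 Cxcr6 UMIs per 100 of these UMIs. In T-gate cells with at most 1% of UMIs from the 5 macrophage genes, Cxcr6 stood at 477, 359, 432 and 162 CPM.

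**Figure D3:**
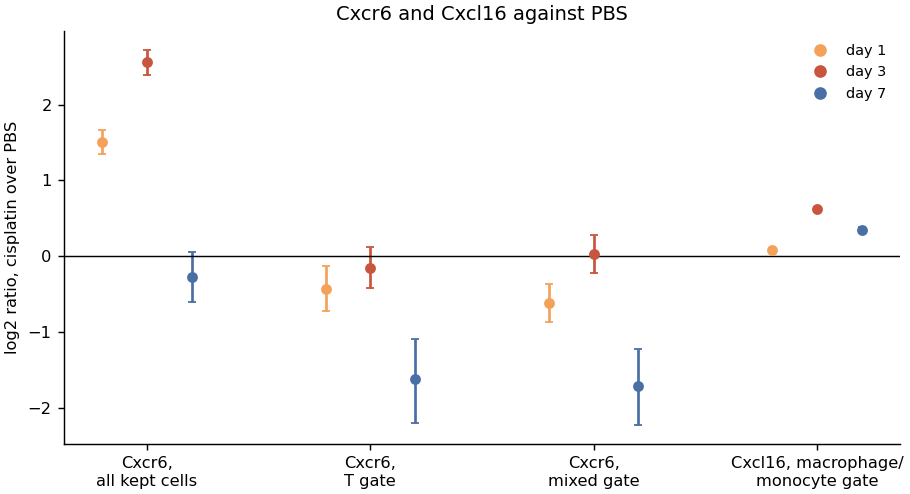
Log2 ratio of each cisplatin library over PBS, with exact conditional 95% intervals, for Cxcr6 over all kept cells, in the T gate and in mixed barcodes, and for Cxcl16 in the macrophage/monocyte gate. Cxcr6 over all cells lies at 1.51 and 2.56 at day 1 and day 3, while the T gate lies at or below 0 on all 3 days and at -1.62 at day 7.

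Among T cells, those with Trdc, the constant chain of the gamma-delta receptor, had the highest Cxcr6 at PBS, day 3 and day 7. They stood at 1011 (682 to 1444), 556 (410 to 737.5), 1121 (977 to 1280) and 519 (268 to 906) CPM in 14, 25, 60 and 10 cells after PBS and on days 1, 3 and 7. Cells with Foxp3, the factor of regulatory T cells, stood at 218, 256, 233 and 92.4 CPM in 43, 97, 104 and 30 cells. In PBS the Trdc level was 4.64-fold (2.62 to 8.30) that of Foxp3 cells, at day 1 2.17-fold (1.499 to 3.12) and at day 3 4.82-fold (3.71 to 6.30). Cells with Cd8a or Cd8b1, the co-receptor of cytotoxic T cells, were highest at day 1, at 771 (626 to 939) CPM in 26 cells, and stood at 434 CPM in 41 cells at day 3 and 201 CPM in 16 cells at day 7. The PBS library had 5 such cells with 3 UMIs. Cells with Cd4 alone stood at 439, 389 and 456 CPM in 9, 14 and 26 cells of the PBS, day 1 and day 3 libraries. In PBS, cells with none of these markers stood at 619 (486 to 777) CPM, and this interval overlaps that of Trdc cells. At day 7 the Trdc value rests on 12 UMIs, beside 9 UMIs in cells with Cd8a or Cd8b1.

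The difference from PBS was not equal across these cells. Those with none of the 4 markers stood at 619 CPM in PBS and at 206, 298 and 96.2 CPM on days 1, 3 and 7, with log2 ratios of -1.59, -1.06 and -2.69, each past 1.5-fold. Cells with Cd8a or Cd8b1 were at 1.71 (0.12 to 4.01) at day 1, past 1.5-fold, 0.88 (-0.72 to 3.19) at day 3 and -0.23 (-2.24 to 2.29) at day 7, all against 3 UMIs in PBS. Foxp3 cells were at 0.23 (-0.43 to 0.95) at day 1, 0.10 (-0.58 to 0.82) at day 3 and -1.24 (-2.53 to -0.08) at day 7. Trdc cells were at -0.86 (-1.55 to -0.15), 0.15 (-0.41 to 0.75) and -0.96 (-2.06 to 0.05). The mix of cells also differed. Trdc cells made up 10.9%, 10.2%, 15.8% and 10.5% of the T gate and 21.3%, 16.0%, 37.5% and 33.3% of its Cxcr6 UMIs after PBS and on days 1, 3 and 7. Cells with Cd8a or Cd8b1 made up 3.91%, 10.7%, 10.8% and 16.8% of the gate. The median depth of cells with none of the markers was 1532 UMIs at day 7, against 2022 in PBS, and that of Foxp3 cells 2290, against 2028 in PBS; its part in these values was not tested.

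**Figure D4:**
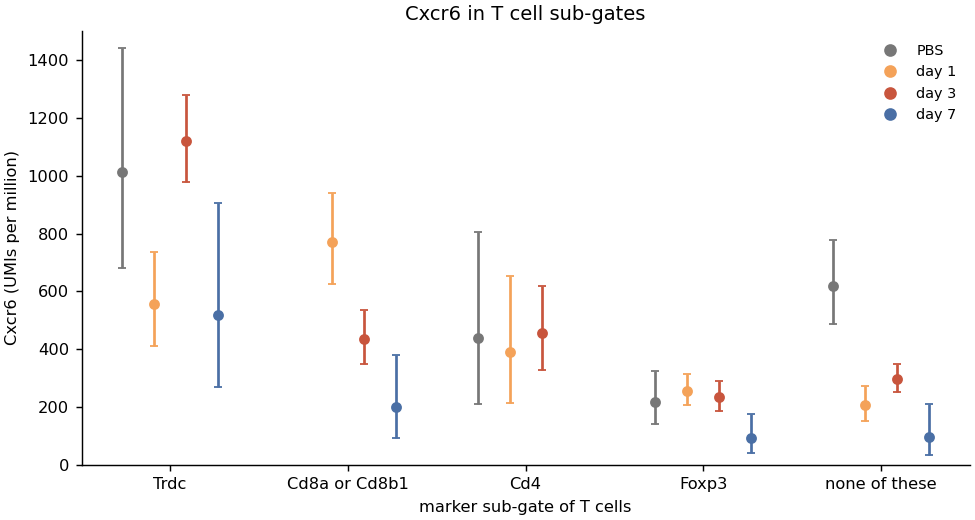
Cxcr6 in CPM in sub-gates of T-gate cells, by library, with exact Poisson 95% intervals; sub-gates with under 9 cells are left out. Trdc cells reach 1121 at day 3, Foxp3 cells lie between 92.4 and 256, and every sub-gate shown at day 7 lies below its day 3 value.

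T cells with a Cxcr6 UMI differed from those without in the genes they held. Over 4 libraries, 233 thinned T-gate cells had Cxcr6 and 397 had none. Cd163l1, a scavenger receptor of gamma-delta T cells, was found in 20.2% of cells with Cxcr6 and 1.51% of cells without. Trdc was found in 23.6% and 8.56%, and Il17a, the cytokine of that subset, in 8.15% and 0.504%. Il18r1, a receptor chain for interleukin 18, was found in 30.5% and 15.9%, Il7r in 76.0% and 63.2%, and Rora in 63.5% and 52.6%. Apart from Il17a, which was higher in 3 libraries, these genes were more frequent with Cxcr6 in 4 of 4 libraries. Genes of circulating T cells went the other way. Ccr7, the receptor that guides T cells to lymph nodes, was found in 7.30% of cells with Cxcr6 and 22.4% of cells without, and Klf2 in 35.6% and 50.4%. Foxp3 was found in 17.6% and 32.2%, and Bhlhe40, a transcription factor of activated T cells, in 24.9% and 34.5%. Ccr7, Foxp3 and Bhlhe40 were less frequent with Cxcr6 in 4 of 4 libraries, and Klf2 in 3. These library counts give direction only, and some differences were small, with overlapping intervals. In PBS, Rora was in 72.7% (54.5 to 86.7%) of cells with Cxcr6 and 70.3% (53.0 to 84.1%) without. At day 1, Foxp3 was in 30.3% (19.6 to 42.9%) and 35.5% (27.0 to 44.8%). The day 7 library had 11 thinned T-gate cells with Cxcr6 and 38 without.

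Gamma-delta and regulatory cells were then left out. In the 126 cells with Cxcr6 and 204 without that held neither Trdc nor Foxp3 by sub-gate, Cd163l1 was in 1.59% and 0.490%. Ccr7 was in 8.73% and 27.0% of them, Klf2 in 38.1% and 60.3%, and Rora in 61.1% and 41.7%. Gzmb, which encodes a granzyme of cytotoxic cells, was in 42.1% and 26.0%, higher with Cxcr6 in 4 of 4 libraries, where over all T-gate cells it was in 39.1% and 39.3%. Cd69, a marker of recent activation and tissue lodging, was in 57.9% and 61.3%. Zfp683, a factor of tissue-resident T cells in mice, was in 0 of 233 and 0 of 397 thinned T-gate cells, and a count of 0 allows up to 1.29% and 0.756% of cells with a UMI at that depth (3 of each number).

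**Figure D5:**
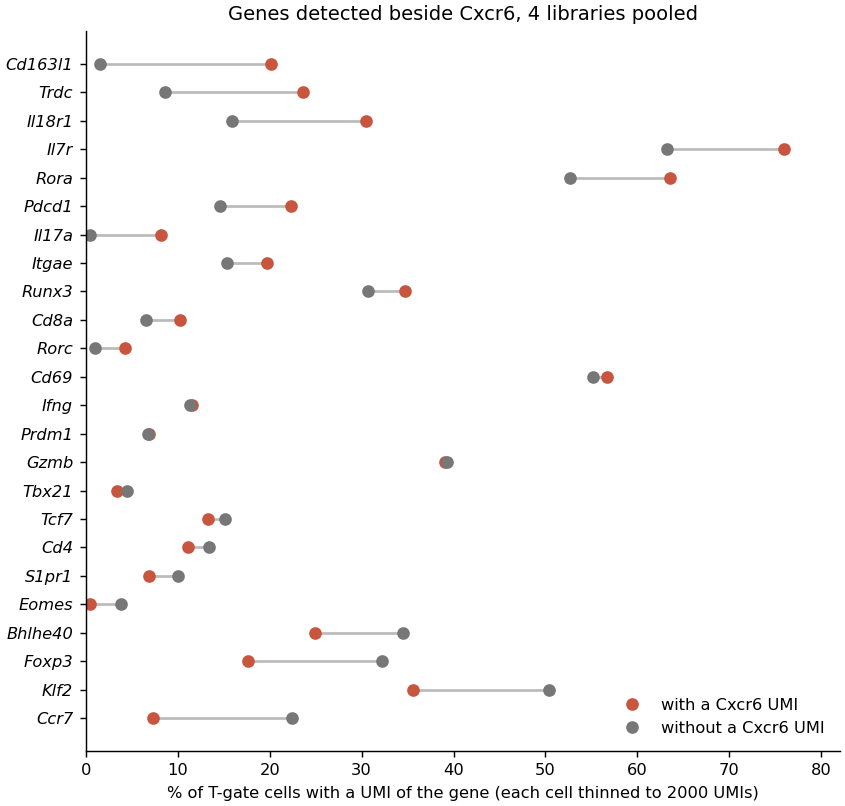
Share of thinned T-gate cells with a UMI of each listed gene, among 233 cells with a Cxcr6 UMI (red) and 397 without (grey), 4 libraries pooled; genes found in under 10 cells and genes not reported here are left out. Cd163l1, Trdc and Il18r1 lead on the side of cells with Cxcr6, and Ccr7, Klf2 and Foxp3 on the side of cells without.

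The same lists in the T gate against PBS describe the T cells in which Cxcr6 differed. At day 7, 4 of 13 residency and effector genes were called higher and 2 lower, of 10 that could be measured, with a median log2 ratio of 0.48 against 0.04 over all features. Il7r was lower, at 396 CPM at day 7 against 1207 CPM in PBS, as were Itgae, an integrin chain of resident T cells, at 68.9 against 217 CPM, and Rora, at 388 against 709 CPM. Klf2 was higher, at 1409 CPM at day 7 against 437 CPM in PBS, as were Ccr7, at 121 against 57.6 CPM, and Pdcd1, an inhibitory receptor, at 233 against 88.1 CPM. At day 3, 5 of these 13 genes were called higher and 1 lower, of 12 that could be measured. Over all features of this gate, 6.96% were called higher and 4.56% lower at day 3, and 12.9% and 9.16% at day 7. Ifng, the cytokine that induces Cxcl16, stood at 20.3 CPM in PBS, from 6 UMIs, 230 CPM at day 1 and 459 CPM at day 3. Gzmb stood at 1404 CPM at day 3 and 475 CPM in PBS. Tbx21, a factor of type 1 lymphocytes, had 46 UMIs at day 3 and 1 in PBS, in T gates of unlike size, 1358207 and 294969 UMIs. Of 9 transcription factors tied to these cells, 5, 8 and 4 could be measured on days 1, 3 and 7. Of these, 0 were called at day 1, 3 were called higher at day 3, and Bhlhe40 was called higher and Rora lower at day 7, where 5.65%, 6.96% and 12.9% of all features were called higher on days 1, 3 and 7. Of 9 genes of receptor signalling, 8, 8 and 6 could be measured: Gnb1, a G protein subunit, was called higher at day 7, at 689 CPM against 264 CPM in PBS, and 0 were called at day 1 and day 3. In macrophage/monocyte cells at day 7 Gnb1 was also called higher.

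Ligand cells outnumbered receptor cells throughout. After PBS and on days 1, 3 and 7, 6323, 5148, 3207 and 1964 macrophage/monocyte or migratory DC cells had a Cxcl16 UMI. Against them stood 67, 94, 162 and 18 T-gate or NK/ILC1 cells with a Cxcr6 UMI. That is 94.4, 54.8, 19.8 and 109 ligand cells for each receptor cell, unthinned and without mixed barcodes, in samples whose mix the sort can set. Mixed barcodes with UMIs of both genes numbered 48, 274, 170 and 22.

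The genes most like each member were named by the Pearson correlation of log2(CPM + 1) over 19 sums, each of 1 gate in 1 library with at least 20 cells. These sums share 4 libraries and differ in depth and in cell type. Of 11428 genes compared, Ctsz (0.98), Plekho1 (0.98), Ccnd1 (0.97) and Spi1 (0.97) were most like Cxcl16, followed by Ctsh, Tmem106a, Basp1 and Rassf4. Camk4 (0.97), Sv2c (0.96), Cd3g (0.95) and Tox (0.94) were most like Cxcr6, followed by Rora, Podnl1, Arnt2 and Tnfrsf25. Cd3g was itself a gate marker.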

How the data were processed

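The deposited values are raw counts of UMIs per gene and barcode from 10x 3' libraries. Per the submitters' processing notes, Cell Ranger 3.1.0, Seurat 3.1.2 and the build mm10 were used; their roles are not given. The members and the gene lists were chosen with earlier results of these data known. Barcodes were kept from 500 genes upwards and up to 10% mitochondrial counts. Scrublet (scanpy 1.11.5, expected rate 8%) marked 0 barcodes by its own threshold and so has not worked, and the highest scores were removed instead at 0.8% per 1000 barcodes, which took out 650, 643, 249 and 66 from PBS and days 1, 3 and 7. UMIs were summed per gate and library and scaled to the gate total. Levels carry exact Poisson intervals, shares exact Clopper-Pearson intervals, and ratios exact conditional binomial intervals (scipy 1.17.1), all at 95%. UMIs per cell varied more than Poisson counts do. In PBS their variance was 2.18 times the mean for Cxcl16 in macrophage/monocyte cells and 2.69 times for Cxcr6 in T-gate cells. Intervals formed from summed UMIs leave out this spread between cells and are too narrow for it. A count of 0 was given a floor of 3 counts. The step that calls features was tested on simulated data with Poisson counting error only. These held no variation between libraries, so the calls were not tested against it. Alternatives used TMM factors (edgeR 4.0.16) and DESeq2 1.42.0 size factors, other filters and other gates. Genes named are the members, 6 lists and the 8 genes most like each member. Some listed genes count in the list totals but are not reported here. Gene positions came from GENCODE vM21. The restriction to T cells without Trdc and Foxp3 was added after seeing the data. Cells are not replicates, and no test across samples was possible with 1 library per group.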

Additional observations from a re-analysis of the deposited data

How the results depend on the processing

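Over 26 results and 152 alternatives, 131 values stayed within the counting interval (or within 1.5 times, for counts), 21 moved, and 0 called values changed direction. A further 24 alternatives concern shares of a library's UMIs, of which 9 moved, as for the T-gate share of Cxcr6 UMIs in PBS, 27.4% with at least 1000 genes against 35.5%. In macrophage/monocyte cells the day 1 log2 ratio of Cxcl16, 0.08 and not called, was -0.040 with TMM and -0.026 with DESeq2 scaling. The day 3 ratio was 0.65 with at most 5% mitochondrial counts, 0.67 with TMM and 0.67 with DESeq2 scaling. Cxcr6 in the T gate at day 1 was -0.91 with mixed barcodes added, past 1.5-fold, and at day 7 it ranged between -2.11 and -1.27 over 11 alternatives. At day 3 it ranged between -0.31 and -0.005 over 11 alternatives. Its interval left out 0 with Cd3 scaling (-0.56 to -0.02), with at least 3 Cd3 UMIs (-0.59 to -0.006), and with mixed barcodes and Cd3 scaling (-0.49 to -0.12). In the other alternatives it included 0. Over all cells with at least 1000 genes, Cxcr6 was 1.74 at day 1 and 2.85 at day 3. Thinning to 1000 UMIs gave Cxcl16 in 44.0%, 46.2%, 56.8% and 51.6% of macrophage/monocyte cells after PBS and on days 1, 3 and 7, and Cxcr6 in 35.5%, 20.2%, 27.5% and 10.6% of T-gate cells. The Cxcl16 share at day 1 was 69.2% without doublet removal, 69.2% with at most 5% mitochondrial counts and 69.1% with at least 1000 genes, and at day 7 it was 71.8% with at most 5% mitochondrial counts. With all features that have a UMI, 190 and 327 features passed in NK/ILC1 cells at day 1 and day 3, against 101 and 205. The Cd3 scaling, the limit of 5 macrophage markers and the settings over all cells were chosen after seeing the data. No ratio of Cxcr6 was made in NK/ILC1 cells, since PBS had 0 UMIs. Other causes of these moves were not tested. No paired analysis was possible because each group has 1 library. The T gate favours shallow barcodes and holds 36 Cxcr6 UMIs at day 7, so its sub-gate values there rest on few counts.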
